A study of Mus musculus with 12 samples.

Results

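Epithelium from intestinal tumors was compared between 3 arrays of FSPCre-PPARB −/− mice, called KO here, and 3 arrays of PPARB flox/flox mice, called floxed here. These 6 were chosen by title from the 12 arrays of the series. All mice were males on a C57BL6/J APCmin/+ background, harvested at 25 weeks, and the floxed mice were littermates of the KO mice. APCmin/+ mice carry an inactivating mutation of Apc and form intestinal adenomas, so every array compared carries that allele. The floxed mice carry Ppard, the gene of the nuclear receptor PPAR-beta/delta, between recombination sites and without the FSPCre transgene by their label. FSPCre is Cre driven by the promoter of fibroblast-specific protein (S100a4), which is active in fibroblasts and in some leukocytes, so the labelled deletion lies in stromal cells while the tissue measured is epithelium. The tissue was cut from stained sections by laser, and the RNA was processed with a pico-scale amplification kit. Which animal gave which array is not stated, and p-values therefore measure the spread between these arrays, part of which may be technical. Of the other 6 arrays, from epithelium adjacent to tumors, 4 entered the fit and 2, whose title and characteristic name opposite genotypes, were given no group.

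PPAR-beta/delta pairs with a retinoid X receptor and binds DNA elements built from repeats of the hexamer AGGTCA. Its textbook targets include genes of fatty acid transport and oxidation, and in the intestine it has been studied for its part in adenoma growth. In tumors the stroma and epithelium signal to each other, and the comparison asked how tumor epithelium differed when the receptor gene was removed from FSP-expressing stromal cells.

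In KO tumor epithelium some short noncoding RNAs were higher, among them 4 of 53 small nucleolar RNA genes, while 1 of the 53 was lower. The cytochrome P450 genes Cyp3a25 and Cyp3a11 and the carboxylesterase gene Ces2g were also higher, and a microRNA gene, Mir465, was far lower. The calls of Cyp3a25, Cyp3a11 and Ces2g were each lost with at least 1 array left out. Of 19938 genes tested, 136 were higher in KO (0.682% of the genes) and 79 lower (0.396%), 215 in all (1.08%; limma, Benjamini-Hochberg adjusted p under 0.05). All values are log2 expression values as deposited, and each difference is KO minus floxed with the standard error of the fit (SE, n = 3 and 3). The median rise among the 136 was 1.74 and the median fall among the 79 was −1.50, and all 215 changed by more than 1 log2 unit. In each of the 215 the KO and floxed arrays did not overlap, against 27.0% of all genes tested (13.2% higher and 13.9% lower in KO). The 215 were called from these same values, so this separation is a description and adds no support to the calls. With the replicate number of the titles as a block, whose meaning the labels do not give, 831 genes passed (4.17%), 448 higher and 383 lower.

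Most of these calls did not hold with 1 array fewer. Leaving out KO array 1, 2 or 3 gave 10, 10 and 14 genes, all among the 215. Leaving out floxed array 1 gave 20 genes, 16 of them among the 215, and leaving out floxed array 2 gave 77, with 61 among them. Leaving out floxed array 3 gave 5793, which held all 215. Quantile normalization gave 13 genes, 9 higher and 4 lower, with 12 among the 215. Scaling to equal spread gave 13, 6 higher and 7 lower, with 8 among the 215, and a fit of the 6 tumor arrays alone gave 8, all among them. Placing the 2 arrays of opposite labels by their title gave 0 genes (limma, 3813 at an unadjusted p under 0.05), and by their characteristic 132, with 119 among the 215. Only 8 genes of the 215 passed with any 1 of the 6 tumor arrays left out: Snord42a, Snora62, Gm24463, Snord42b, Rpl5, Tns1, Usp17ld and, as the only fall, Mir465. Their highest adjusted p in those 6 fits ranged from 9.61e-05 for Snord42a to 0.0472 for Usp17ld. For the rest of the 215 the call was lost with at least 1 array left out.

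The arrays were not of equal signal, and the weak ones, floxed arrays 1 and 2, were of the same genotype, while floxed array 3 was not weak. Over all probe sets, r among the 3 KO arrays was 0.952 to 0.966 over all probe sets, and floxed array 3 correlated with them at 0.812 to 0.839. Floxed arrays 1 and 2 correlated with every other array at no more than 0.640 and 0.566. The SD of gene values within an array was 0.815, 0.739 and 1.26 in floxed arrays 1 to 3 and 1.15, 1.18 and 1.27 in KO arrays 1 to 3, with means of 0.937 ± 0.280 (SD, n = 3) and 1.20 ± 0.0623 (SD, n = 3). The difference of 0.265 had a p of 0.3 (exact permutation test over the arrays, two-sided; 3 against 3 cannot give less than 0.10). The part of this difference in signal in the results was not tested. For that reason the KO mean is also set against floxed array 3 alone, without a test, where it bears on a result: 116 of the 136 rises and 53 of the 79 falls differed from that array by more than 1 log2 unit in the same direction.

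**Figure D1:**
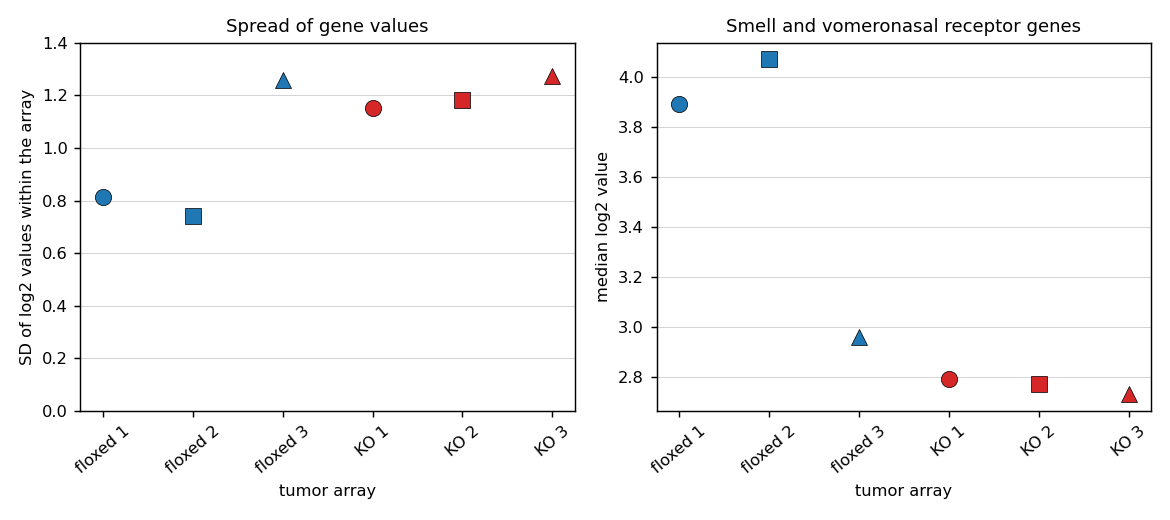
Left, the SD of log2 values over 19938 genes in each tumor array. Right, the median log2 value of 1207 smell and vomeronasal receptor genes in the same arrays; blue marks are floxed and red marks KO arrays. Floxed arrays 1 and 2 have the smallest spread (0.815 and 0.739) and the highest receptor medians (3.89 and 4.07), while floxed array 3 lies nearer the KO arrays in both panels.

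The labelled tissue was checked against defining markers. Fabp1, a fatty acid binding protein of enterocytes, lay at 9.49, 7.45 and 11.2 in floxed arrays 1 to 3 and at 10.4, 11.6 and 10.8 in KO arrays 1 to 3, at or above the 99.8 percentile of genes in every array. Vil1, the brush border protein villin, lay between 5.64 in floxed array 2 and 8.96 in floxed array 3, and between 7.88 and 8.50 in the KO arrays. Krt8, an epithelial keratin, lay at the 32.9 percentile in floxed array 2 and at or above the 98.6 percentile in the other 5. Muc2, the goblet cell mucin, lay at the 12.9 percentile in floxed array 2 as well. Of mesenchymal and leukocyte genes, Vim (vimentin) lay between the 43.0 and 76.4 percentiles and Ptprc (CD45) between the 41.7 and 72.1. Col1a1, a fibrillar collagen of fibroblasts, lay between the 74.2 and 93.3 percentiles. Epcam, an epithelial adhesion molecule, lay at the 95.2, 71.0 and 96.3 percentiles in floxed arrays 1 to 3 and at 58.2, 79.8 and 93.1 in KO arrays 1 to 3. Fabp1 and Vil1 thus stood high in all 6 arrays, whereas Krt8, Muc2 and Epcam did not, and Col1a1 stood above Epcam in floxed array 2 and in KO arrays 1 and 2.

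MicroRNAs are short RNAs that pair through bases 2 to 8, the seed, with target messages. Of 297 microRNA genes measured, 8 were higher and 9 lower in KO, 5.72% against 1.08% of all genes. The median over the 297 was −0.46 (all genes −0.0061), and 0.066 against floxed array 3 alone. The KO arrays all lay below the floxed arrays in 29.6% (13.9% of all genes), and above them in 11.1% (13.2%). Their mature sequences are printed for the 6 called genes with the widest gap between the genotypes, 5′ to 3′ with the seed in capitals, from RefSeq on GRCm38.p6. A mature sequence was found for 15 of the 17 called genes. An array of this kind measures the transcript that carries the microRNA and cannot tell it from the mature form.
mmu-miR-465a-5p: uAUUUAGAauggcacugauguga
mmu-miR-465a-3p: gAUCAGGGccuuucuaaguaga
mmu-miR-181a-5p: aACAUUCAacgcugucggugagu
mmu-miR-181a-1-3p: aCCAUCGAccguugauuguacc
mmu-miR-421-5p: cUCAUUAAauguuuguugaau
mmu-miR-483-5p: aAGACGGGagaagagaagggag
mmu-miR-483-3p: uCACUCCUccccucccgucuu
mmu-miR-504-5p: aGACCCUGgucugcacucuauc
mmu-let-7a-5p: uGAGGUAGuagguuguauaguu
mmu-let-7a-1-3p: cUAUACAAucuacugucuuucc

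Mir465, an X-linked gene whose 5p form lies at chrX:66839099-66839121 on the minus strand, had the largest fall among the microRNA genes called. It lay at 5.21, 6.87 and 7.18 in floxed arrays 1 to 3 and at 1.70, 1.61 and 1.92 in KO arrays 1 to 3. The KO arrays were close to each other and at least 3.29 log2 units below the lowest floxed array. The difference was −4.68 ± 0.46 (SE; limma adjusted p = 0.00229), and against floxed array 3 alone it was −5.44. In adjacent epithelium Mir465 was also lower in KO, by −4.23 (adjusted p = 0.0085), with 2 arrays in each group. Both floxed arrays there had weak signal, so signal and genotype cannot be told apart.

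Mir483, which lies within the Igf2 locus, rose. It lay at 6.89, 7.40 and 6.19 in the floxed arrays and at 9.45, 9.22 and 8.96 in the KO arrays, a difference of 2.39 ± 0.32 (SE; limma adjusted p = 0.0134). Mirlet7a-1, one of several genes that give let-7a, lay at 4.60, 5.30 and 4.05 in the floxed arrays and at 6.97, 7.04 and 6.70 in the KO arrays, higher by 2.26 ± 0.30 (adjusted p = 0.0134). Mir504 was higher by 2.04 ± 0.29 (adjusted p = 0.0187), with floxed arrays at 4.02 to 4.87 and KO arrays at 6.32 to 6.88. For these 3 genes the difference from floxed array 3 alone was 3.03, 2.86 and 1.85.

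The mir-181 genes did not move together. Mir181a-1 lay at 3.72, 3.82 and 3.96 in the floxed arrays and at 1.85, 2.02 and 2.07 in the KO arrays, and fell by 1.85 ± 0.28 (SE; limma adjusted p = 0.0214). Mir181a-2, which gives the same 5p sequence from another locus, fell by 1.76 ± 0.34 (adjusted p = 0.0468). Mir181c was called in the other direction, with floxed arrays at 4.52, 5.24 and 5.20 and KO arrays at 6.76, 6.97 and 6.44, a difference of 1.74 ± 0.28 (adjusted p = 0.0271). These last 2 genes were chosen after their values were seen, because they share seeds with Mir181a-1. The 5p sequences have the same seed, and the 3p sequences of Mir181a-1 and Mir181c share theirs too, as the line for each shows.
mmu-miR-181c-5p: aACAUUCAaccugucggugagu
mmu-miR-181c-3p: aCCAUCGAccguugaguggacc
Among the mature sequences found, no other seed was shared between called microRNA genes. Mir421, an X-linked microRNA gene, fell by 1.80 ± 0.24 (adjusted p = 0.0134) to between 1.60 and 1.74 in the KO arrays. After quantile normalization Mir465 was the only 1 of the 6 microRNA genes with the widest gap that passed (limma adjusted p = 0.00986). Of the falls, Mir181a-1 and Mir421 did not pass (limma adjusted p = 0.243 and 0.217). Of the rises, Mir483, Mir504 and Mirlet7a-1 did not pass either (limma adjusted p = 0.221, 0.134 and 0.125). Mir181a-1 and Mir421 lay at the low end of the scale in KO, where floxed arrays 1 and 2 read higher for many genes. Against floxed array 3 alone they differed by −1.98 and −1.87. The part of that level in these falls was not tested.

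Small nucleolar RNAs guide chemical modification of ribosomal RNA and are cut from introns of host genes, many of which encode ribosomal proteins. Of 53 measured, 4 were higher and 1 lower in KO (9.43% called against 1.08% of all genes), while their median difference was −0.12, below the −0.0061 of all genes. Against floxed array 3 alone the median was −0.55 (all genes 0.0151). The KO arrays all lay above the floxed arrays in 22.6% (13.2% of all genes) and below them in 22.6% (13.9%), so the class did not rise as a whole. The genes in this paragraph and the next were chosen after their values were seen. Snord42a, a box C/D guide inside Rpl23a, had the largest rise of all genes called. It lay at 3.57, 4.03 and 4.18 in floxed arrays 1 to 3 and at 10.6, 9.87 and 10.1 in KO arrays 1 to 3. All 3 floxed arrays were low, floxed array 3 included, and the difference was 6.26 ± 0.27 (SE; limma adjusted p = 3.25e-06). Snord42b, also inside Rpl23a, lay at 3.90, 4.29 and 4.90 in the floxed arrays and at 8.27, 7.71 and 7.47 in the KO arrays, higher by 3.45 ± 0.37 (adjusted p = 0.00415). Rpl23a itself, a protein of the large ribosomal subunit, lay at 5.87, 5.75 and 7.79 in the floxed and 6.27, 6.96 and 6.19 in the KO arrays, with a difference of 0.0033 ± 0.54 (adjusted p = 0.997).

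Snora62, a box H/ACA guide inside Rpsa, lay at 4.95, 5.11 and 5.95 in the floxed arrays and at 9.44, 9.47 and 8.85 in the KO arrays. It was higher by 3.92 ± 0.36 (SE; limma adjusted p = 0.00225). Rpsa, a protein of the small ribosomal subunit, differed by 1.36 ± 0.92 (adjusted p = 0.399), with floxed arrays spread from 3.88 to 8.92. Snora7a, inside Rpl32, was higher by 2.63 ± 0.47 (adjusted p = 0.041), and Snord73a, inside Rps3a1, was lower by −1.89 ± 0.37 (adjusted p = 0.0466), while Rps3a1 differed by −0.46 ± 0.30 (adjusted p = 0.374). Gm24463, a predicted noncoding gene, lay at 4.91, 4.87 and 5.79 in the floxed arrays and at 9.07, 8.63 and 8.24 in the KO arrays, higher by 3.46 ± 0.34 (adjusted p = 0.00229).

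**Figure D2:**
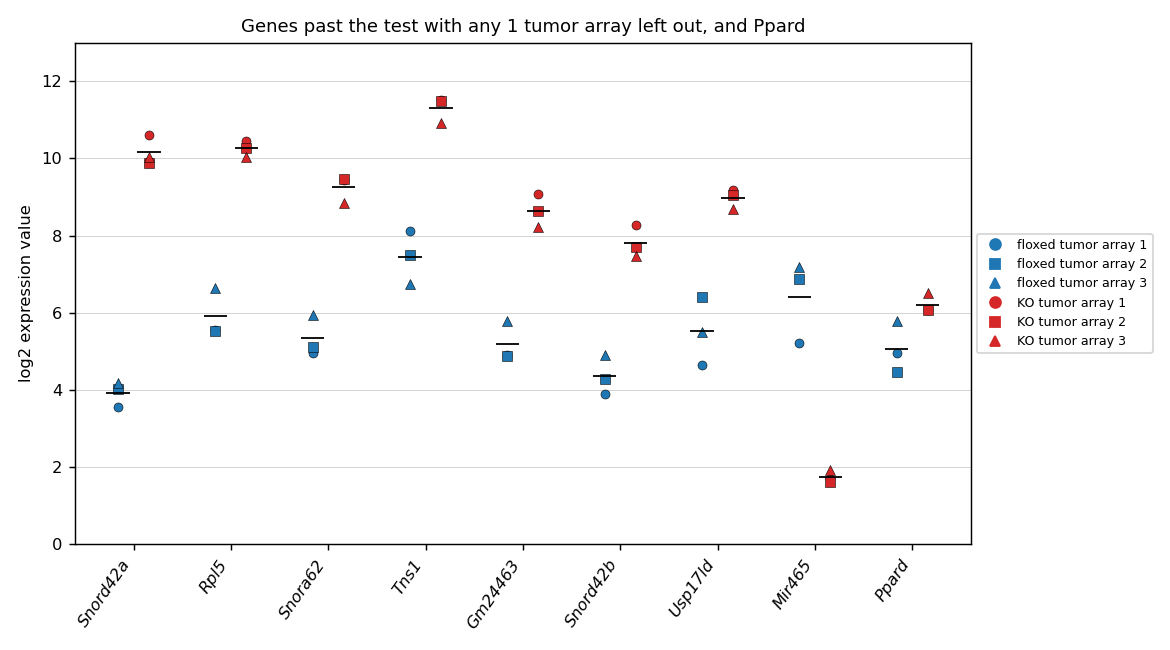
Log2 expression in each tumor array for the 8 genes that passed with any 1 tumor array left out, and for Ppard; each mark is 1 array, blue floxed and red KO, and black bars are group means. The genotypes do not overlap for any of the 9 genes, and Mir465 alone is lower in KO.

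Rpl5, which encodes a 60S ribosomal protein that also binds the p53 regulator Mdm2, lay at 5.56, 5.54 and 6.64 in the floxed arrays and at 10.5, 10.3 and 10.1 in the KO arrays, higher by 4.35 ± 0.36 (SE; limma adjusted p = 0.00144). This value is that of 1 of its 5 probe sets, the one with the highest mean over the arrays, and the other 4 differed from it. They gave 1.13 to 1.74, none past the test when all probe sets were tested (lowest adjusted p = 0.141), and in them floxed array 3 was within the range of the KO arrays or just above it. What the probes of each set match was not examined. Tns1, which links integrins to actin and is a marker of smooth muscle and fibroblasts, lay at 8.11, 7.51 and 6.74 in the floxed and 11.5, 11.5 and 10.9 in the KO arrays, higher by 3.86 ± 0.37 (adjusted p = 0.00229). Of its 5 other probe sets 1 passed, at 1.39 (adjusted p = 0.0465 over all probe sets), and the other 4 were between −0.10 and 0.30. Usp17ld, a deubiquitinating enzyme, has 1 probe set, and lay at 4.65, 6.42 and 5.51 in the floxed and 9.18, 9.05 and 8.70 in the KO arrays, higher by 3.45 ± 0.39 (adjusted p = 0.00627).

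Probe sets of the same gene disagreed for most called genes that had several. Of the 215 called genes, 189 had 1 probe set and 26 had more. All other probe sets passed in the same direction for 6 of the 26, some but not all for 5, and none for 15, and 15 had a probe set of the opposite sign. No probe set passed in the opposite direction. Gm24463 (4 of 4 others, 3.40 to 3.49), Timm23, an importer of mitochondrial proteins (3 of 3 others, 1.65 to 1.83), and Polr2h, a subunit shared by the RNA polymerases (1 of 1, 1.70), had agreeing sets, some of which held identical values. Chd7, a chromatin remodeler, was called at 3.02, and of its 29 other probe sets 3 passed, with a range of −1.57 to 1.78. Taf1d, a factor of RNA polymerase I whose gene hosts small nucleolar RNAs, was called at 3.15, and its 8 others lay between −1.27 and 0.91 with none past the test. Btnl5-ps, a butyrophilin-like pseudogene, was called at 3.38, and its 2 others were −0.22 and 0.54.

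**Figure D3:**
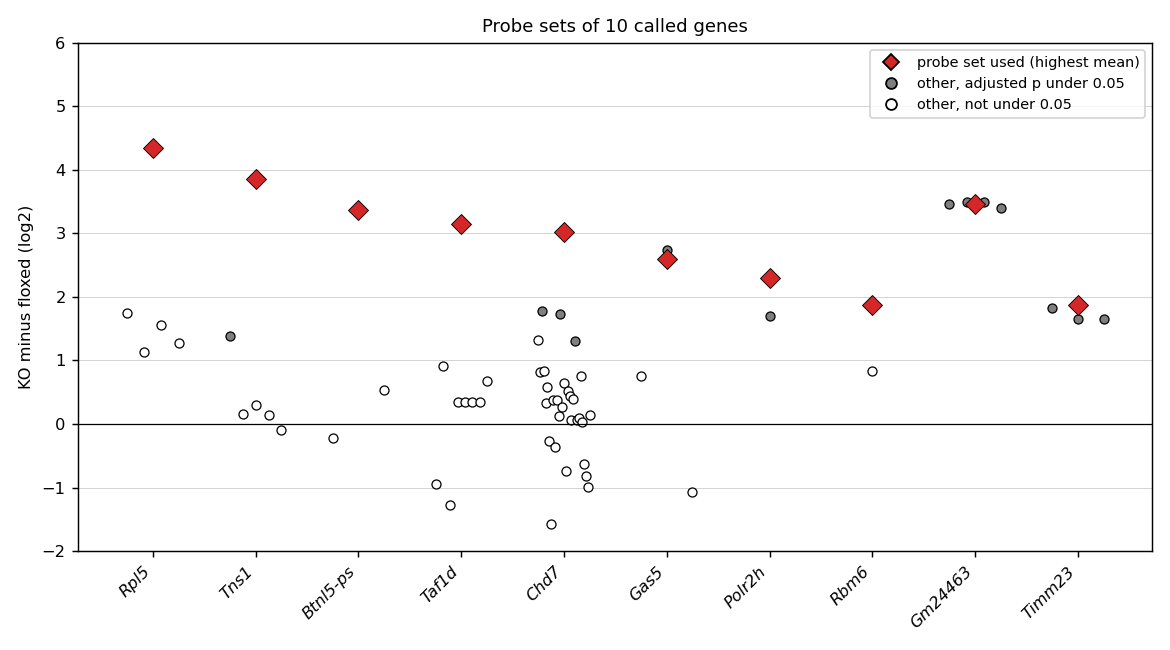
KO minus floxed (log2) for each probe set of 10 called genes; red diamonds are the probe set with the highest mean, used for the gene, gray circles are others with an adjusted p under 0.05 over all probe sets and open circles others without. The probe sets of Gm24463, Timm23 and Polr2h lie near the diamond, while for Rpl5, Taf1d and Btnl5-ps no other passed.

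The remaining genes with the widest gaps followed. Abl1, a tyrosine kinase, lay at 3.74 to 4.58 in the floxed and 6.23 to 6.68 in the KO arrays, higher by 2.12 ± 0.27 (SE; limma adjusted p = 0.0113). Rbm6, an RNA-binding protein, was higher by 1.88 ± 0.22 (adjusted p = 0.0072), but its other probe set gave 0.83 (adjusted p = 0.245 over all probe sets). Aadac, a microsomal hydrolase, lay at 4.32 to 5.36 in the floxed and 6.89 to 7.40 in the KO arrays, higher by 2.30 ± 0.33 (adjusted p = 0.0189). Polr2h lay at 4.01 to 4.89 and 6.76 to 7.09, higher by 2.29 ± 0.27 (adjusted p = 0.008). Of the 12 rises with the widest gaps, 9 also passed in adjacent epithelium with 2 arrays a genotype, where 1209 of 19938 genes passed. Both floxed adjacent arrays had weak signal, so signal and genotype cannot be told apart in that tissue. After quantile normalization 3 of the 12 passed, among 13 genes in all.

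Falls lay at low levels. Of the 8 falls with the widest gaps, all KO arrays were between 1.82 and 3.22 and all floxed arrays between 3.30 and 5.62. Mcts1, a factor of translation re-initiation, lay at 4.90, 5.62 and 5.40 in the floxed and 2.98, 2.79 and 3.22 in the KO arrays, and fell by 2.31 ± 0.26 (SE; limma adjusted p = 0.00648). Mcts2, its retrogene copy, fell by 1.37 ± 0.24 (adjusted p = 0.0405) from 6.32, 6.10 and 6.52 to 5.24, 4.85 and 4.74. Mcts2 was the only called fall whose KO mean was above the median of all genes in the KO arrays, and with near-identical sequences the signals of Mcts1 and Mcts2 may not be separate. Sp140, a chromatin reader of leukocytes, fell by 1.46 ± 0.24, and Dnajb7, a DnaJ co-chaperone, by 1.80 ± 0.27 (adjusted p = 0.0327 and 0.0214). Ssxb3, Tmed11, Fam90a1b and Dthd1 fell by 1.50, 1.32, 1.31 and 1.55. At this end of the scale the floxed arrays of small spread read higher: smell and vomeronasal receptor genes, which gut epithelium is not known to use broadly, had medians of 3.89, 4.07 and 2.96 in floxed arrays 1 to 3 and 2.79, 2.77 and 2.73 in the KO arrays. Of these 1207 receptor genes 0 were called higher and 25 lower (2.07% against 0.396% of all genes called lower), and 45.8% had floxed arrays all above the KO arrays, against 13.9% of all genes. The part of that level in the falls was not tested.

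Ppard, the floxed gene, was not lower in KO tumor epithelium. It lay at 4.95, 4.47 and 5.79 in floxed arrays 1 to 3 and at 6.06, 6.07 and 6.50 in KO arrays 1 to 3. The arrays did not overlap, and the difference of 1.14 ± 0.33 (SE) did not pass (limma adjusted p = 0.0991). With the replicate number as a block it passed (adjusted p = 0.0467), and without floxed array 3 it was 1.50 (adjusted p = 0.0032). The labelled deletion is in stromal cells, and whether the probes lie in the deleted exons was not examined, so this value checks no label. S100a4, the gene whose promoter names FSPCre, lay at 3.40, 3.70 and 3.07 in the floxed and 4.28, 4.41 and 4.21 in the KO arrays, with a difference of 0.90 ± 0.30 (adjusted p = 0.125).

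The partners of the receptor gave no call, and Ppard itself was the only member of their list to pass with the replicate block. Among 14 receptors, retinoid X receptors and coactivators 0 passed (1.08% of all genes did), with a median of 0.27, and of −0.43 against floxed array 3 alone. Ppara lay at 4.22 to 5.66 in the floxed and 4.57 to 5.08 in the KO arrays (0.09 ± 0.35; limma adjusted p = 0.907), and Pparg at 3.70 to 6.49 and 4.97 to 5.79 (0.17 ± 0.55; adjusted p = 0.877). The groups overlapped in both. Rxrb, a retinoid X receptor, differed by 0.71 ± 0.27 (adjusted p = 0.159). Apc, mutated in all these mice, differed by −0.37 ± 0.31 (adjusted p = 0.496).

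Of 36 targets of the PPARs and enzymes of fatty acid oxidation, 1 passed (2.78% against 1.08% of all genes), and it was lower. With the replicate block Cpt1a, which brings fatty acids into mitochondria, also passed, as higher: it lay at 4.61, 4.86 and 5.75 in the floxed and 5.74, 6.21 and 6.68 in the KO arrays (1.13 ± 0.35; limma adjusted p = 0.109, and 0.0438 with the block). Eci2, which moves double bonds for the oxidation of unsaturated fatty acids, lay at 4.81, 4.43 and 4.77 in the floxed and 3.61, 3.58 and 3.70 in the KO arrays, a fall by 1.04 ± 0.21 (SE; limma adjusted p = 0.0492). The list had a median of 0.40, and of −0.39 against floxed array 3 alone, with 11 of 36 above that array. Pdk4, a textbook target that limits glucose oxidation, lay at 5.17, 4.58 and 8.42 in the floxed and 4.43, 5.48 and 5.85 in the KO arrays (−0.80 ± 0.81). Angptl4, a secreted lipase inhibitor and another such target, differed by −0.05 ± 0.34, and Plin2, which coats lipid droplets, by 0.74 ± 0.53 (adjusted p = 0.577, 0.951 and 0.43 for these 3 genes, which were chosen after their values were seen). In each of the 3 the groups overlapped.

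Phase I detoxification genes were the protein-coding list with the largest share of calls. The lists and their members were chosen with earlier results of these data known, so the shares are a description. Cytochromes P450, flavin monooxygenases and carboxylesterases make lipophilic compounds more polar, and in enterocytes many are induced by xenobiotic receptors. Of 32 measured, 4 were higher and 0 lower (12.5% against 1.08% of all genes), and in 15 the KO arrays all lay above the floxed arrays (46.9% against 13.2%). With the replicate block, where 4.17% of all genes passed, 8 were higher and 0 lower, with Cyp2c65, Ces2a, Ces1g and Adh4 added. The list had a median of 0.89 (all genes −0.0061), of 0.66 against floxed array 3 alone (all genes 0.0151), with 23 of 32 above that array, and of 0.81 after quantile normalization. Cyp3a25, a cytochrome P450 of drug and steroid hydroxylation, lay at 4.77, 4.17 and 5.41 in the floxed and 8.04, 9.59 and 8.33 in the KO arrays, higher by 3.87 ± 0.48 (SE; limma adjusted p = 0.00843). Cyp3a11, the main Cyp3a enzyme of liver and gut, lay at 5.66, 4.21 and 6.54 in the floxed and 7.55, 8.88 and 8.77 in the KO arrays, higher by 2.93 ± 0.54 (adjusted p = 0.0448). Near-identical members of the Cyp3a, Ces1 and Ces2 families may share probe signal.

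The flavin monooxygenase Fmo5 lay at 6.32, 5.42 and 6.88 in the floxed and 7.80, 7.93 and 8.56 in the KO arrays, higher by 1.89 ± 0.38 (SE; limma adjusted p = 0.0478). Ces2g, a carboxylesterase, lay at 4.95, 3.97 and 5.13 in the floxed and 6.41, 6.56 and 6.42 in the KO arrays, higher by 1.78 ± 0.31 (adjusted p = 0.0367). After quantile normalization Cyp3a25 still passed (limma adjusted p = 0.0337), but Cyp3a11, Fmo5 and Ces2g did not (0.134, 0.16 and 0.169). In the fit of the 6 tumor arrays alone none of these genes passed (limma adjusted p from 0.0688 for Cyp3a25 to 0.141 for Fmo5). Members that did not pass were on both sides. Ces2a (1.93), Adh1 (1.93) and Cyp2c65 (1.93) had adjusted p of 0.0983, 0.105 and 0.0773, while Cyp3a16 (−1.20) and Cyp3a44 (−0.72), close relatives of the called Cyp3a genes, had 0.227 and 0.215. Cyp1a1, the classical target of the aryl hydrocarbon receptor, lay at 3.22 to 4.08 in the floxed and 3.22 to 3.87 in the KO arrays (−0.10 ± 0.28). In adjacent epithelium Cyp3a11 differed by 0.06 (adjusted p = 0.961) and Cyp3a25 by 1.45 (adjusted p = 0.137). The difference between the tissues had unadjusted p of 0.00685 and 0.00856 and did not pass over all genes (adjusted p = 0.703 and 0.707).

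**Figure D4:**
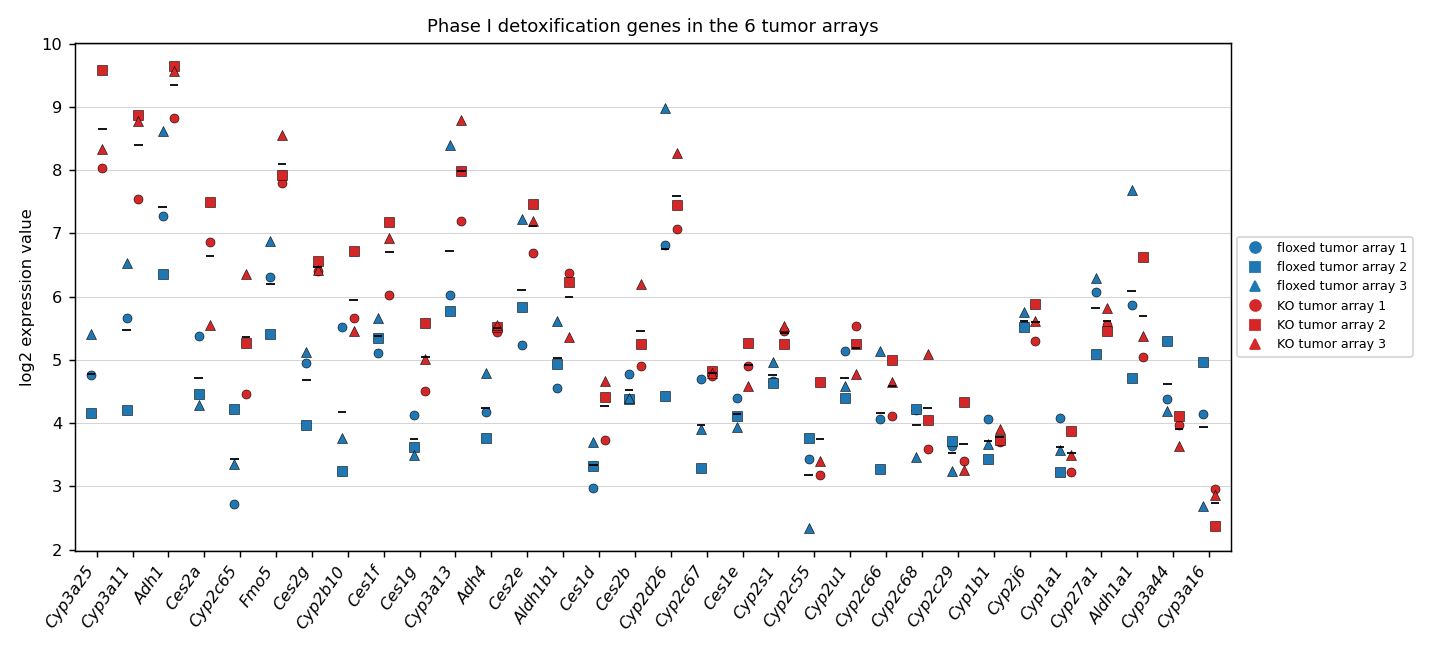
Log2 expression of 32 phase I detoxification genes in the 6 tumor arrays, ordered by KO minus floxed; each mark is 1 array, blue floxed and red KO, with group means as black bars. The KO arrays all lie above the floxed arrays in 15 genes, most of them at the left end, and below them in 1, Cyp3a44.

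The promoters of the 2 called Cyp3a genes are shown because nuclear receptors bind repeats of AGGTCA. RefSeq gives them on GRCm38.p6 as chr5:146009619-146009868 for Cyp3a25 and chr5:145879855-145880104 for Cyp3a11, both on the minus strand, as the 250 bases before the start of transcription, with each AGGTCA or its reverse complement TGACCT in capitals.
Cyp3a25: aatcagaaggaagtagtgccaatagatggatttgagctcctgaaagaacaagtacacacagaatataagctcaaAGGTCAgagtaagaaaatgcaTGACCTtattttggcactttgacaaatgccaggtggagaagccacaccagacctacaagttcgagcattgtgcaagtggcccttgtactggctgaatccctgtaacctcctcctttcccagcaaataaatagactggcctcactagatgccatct
Cyp3a11: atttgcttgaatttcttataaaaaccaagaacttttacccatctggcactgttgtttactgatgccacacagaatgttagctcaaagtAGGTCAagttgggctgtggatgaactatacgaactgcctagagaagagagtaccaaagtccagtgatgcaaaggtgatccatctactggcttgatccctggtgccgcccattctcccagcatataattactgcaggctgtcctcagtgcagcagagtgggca
Cyp3a25 holds the hexamer at position −176 and its reverse complement at −155 from the start, and Cyp3a11 holds it at −162. Over windows of 300 bases and either strand, 21.4% of the phase I list (6 of 28 with a promoter) held the hexamer, 17.0% of the genes called higher (18 of 106), 8.33% of those called lower (5 of 60) and 13.9% of all genes tested (2177 of 15614). These shares are a description of the letters in those windows.

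Phase II and efflux genes were less clear. Of 27 conjugating enzymes and transporters 0 passed, against 1.08% of all genes. With the replicate block, where 4.17% of all genes passed, 5 were higher (Gsta4, Gstk1, Mgst1, Mgst3 and Abcb1a). The median of the 27 was 0.55, and 0.03 against floxed array 3 alone. Abcb1a, the P-glycoprotein efflux pump, lay at 5.13, 4.37 and 6.30 in the floxed and 6.96, 7.50 and 7.14 in the KO arrays (1.93 ± 0.43; limma adjusted p = 0.0617, and 0.0323 with the replicate block). Of 28 genes of the NRF2 and antioxidant response 1 rose, Ephx1, the microsomal epoxide hydrolase, which lay at 3.98, 3.41 and 3.48 in the floxed and 4.77, 5.72 and 6.72 in the KO arrays (2.11 ± 0.42; adjusted p = 0.0478). Prdx1, a peroxiredoxin, was higher as well with the replicate block. The median of that list was 0.22, and −0.47 against floxed array 3 alone.

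Structured noncoding RNAs, a list of RNA polymerase III products and host or nuclear long RNAs, had 3 of 15 higher and 0 lower (20.0% against 1.08% of all genes). In 9 of 15 the KO arrays all lay above the floxed arrays (60.0% against 13.2%). As this list was chosen with earlier results of these data known, its shares are a description. With the replicate block, where 4.17% of all genes passed, 8 were higher and 0 lower. The median was 1.71, and 0.56 against floxed array 3 alone. Rny1, a Y RNA bound by the Ro60 protein, lay at 4.4985, 4.56 and 5.97 in the floxed and 8.70, 8.84 and 9.08 in the KO arrays, higher by 3.86 ± 0.69 (SE; limma adjusted p = 0.041). Vaultrc5, an RNA of the vault particle, lay at 8.66, 5.41 and 8.999 in the floxed and 11.2, 11.4 and 11.8 in the KO arrays (3.77 ± 0.77; adjusted p = 0.0492). Gas5, a host gene of small nucleolar RNAs, was higher by 2.59 ± 0.48 (adjusted p = 0.0445), with 1 of its 3 other probe sets past the test. Rmrp, the RNA of RNase MRP, lay at 8.42, 4.76 and 11.5 in the floxed and 10.1, 9.89 and 8.70 in the KO arrays, so floxed array 3 was highest there.

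The medians of enterocyte, oxidative phosphorylation and ribosomal protein genes changed sign with the floxed arrays used. Absorptive enterocyte markers had a median of 0.86 over the 3 floxed arrays and of −0.46 against floxed array 3 alone, with 1 of 39 called and 4 higher with the replicate block. The gene called without it was Maf, a transcription factor of villus-tip enterocytes (1.74 ± 0.35; limma adjusted p = 0.0487). Nuclear genes of oxidative phosphorylation had medians of 0.70 and −0.38, with Uqcrq of complex III as the only call among 62 (1.80 ± 0.28; adjusted p = 0.0272). With the replicate block 6 of the 62 were higher and 1 lower. Of all genes 1.08% passed without the block and 4.17% with it. Cytosolic ribosomal proteins had medians of 0.47 and −0.69, with Rpl5, described above, as the only call among 54, and 2 with the replicate block. Ribosome biogenesis genes kept their sign, with 0.16 and 0.10, and had Taf1d, also above, as the only call among 35. The mean of the ribosomal list was 6.05, 5.85 and 7.58 in floxed arrays 1 to 3 and 7.04, 7.19 and 6.88 in the KO arrays.

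**Figure D5:**
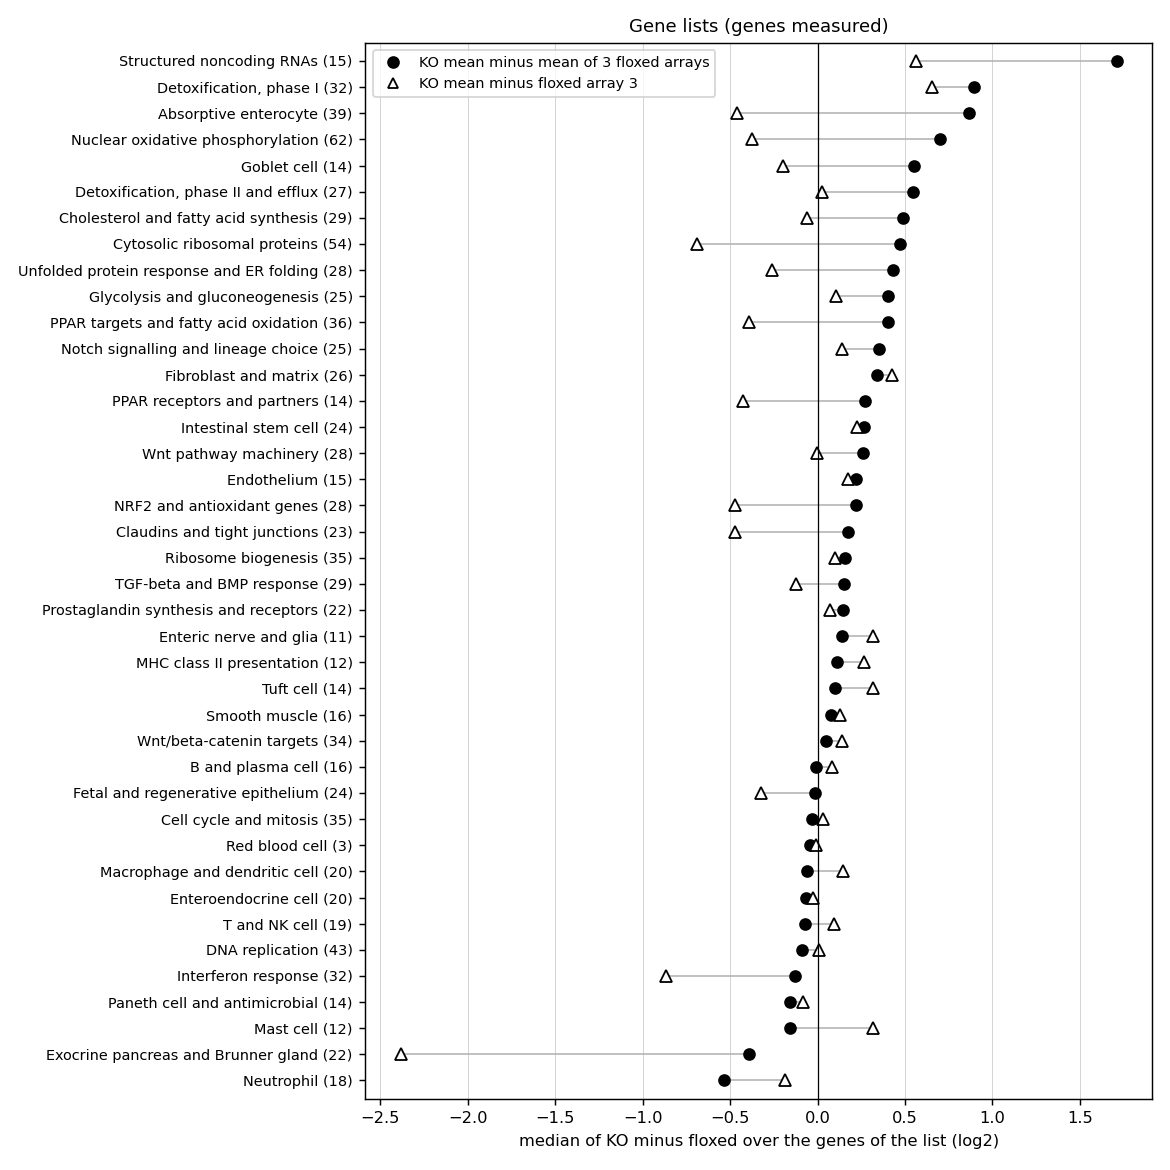
Median over the genes of each list of the KO mean minus the mean of the 3 floxed arrays (black circles) and minus floxed array 3 alone (open triangles), in log2 units, with the number of genes measured in parentheses. Phase I detoxification, structured noncoding RNAs and fibroblast genes keep a median above 0 on both scales. Several other lists do too, such as stem cell, Notch, endothelial and glycolysis genes. Enterocyte, ribosomal and oxidative phosphorylation genes lie on opposite sides of 0.

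Markers of stromal cells were measured because the deletion is stromal. In bulk tissue fewer cells of a type and less RNA per cell cannot be told apart. Of 26 fibroblast and matrix genes 1 was higher and 0 lower (3.85% against 1.08% of all genes). In 9 the KO arrays all lay above the floxed arrays (34.6% against 13.2%). The median was 0.34, and 0.43 against floxed array 3 alone, and 21 of 26 were above that array. Col3a1, a fibrillar collagen, lay at 4.15, 4.42 and 4.62 in the floxed and 5.66, 5.55 and 5.60 in the KO arrays, higher by 1.21 ± 0.24 (SE; limma adjusted p = 0.0478). Col1a2 (0.94 ± 0.24; adjusted p = 0.08) and Sparc, a matrix glycoprotein (1.43 ± 0.35; adjusted p = 0.0732, and 0.0446 with the replicate block), did not pass, and Lum (−0.87) and Vim (−0.43) lay on the other side of 0. The summed level of the list, as a mean, was 4.53, 4.67 and 4.38 in floxed arrays 1 to 3 and 4.88, 4.88 and 4.70 in the KO arrays. Of 16 smooth muscle genes Tns1 was called, and Mylk, a myosin kinase, with the replicate block, and of 15 endothelial genes none was, with medians of 0.08 and 0.22. The KO arrays all lay above the floxed arrays in 18.8% of the smooth muscle and 33.3% of the endothelial genes. In ribosome biogenesis genes, not a stromal list, that share was 31.4%.

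Of 18 neutrophil genes 1 was lower (5.56% called against 1.08% of all genes). In 8 the KO arrays all lay below the floxed arrays (44.4% against 13.9% of all genes) and in 3 above them (16.7% against 13.2%). The median was −0.54, and −0.19 against floxed array 3 alone. Smell and vomeronasal receptor genes had a like share below (45.8%) and medians of −0.79 and −0.13, so nothing particular to neutrophil genes is read from this share. S100a8, a calgranulin of neutrophils, lay at 4.58, 5.28 and 5.15 in the floxed and 3.85, 3.65 and 3.33 in the KO arrays, and fell by 1.39 ± 0.25 (SE; limma adjusted p = 0.0438). S100a9, which forms a dimer with S100a8, lay at 5.75, 6.16 and 5.47 in the floxed and 5.19, 4.99 and 4.96 in the KO arrays (−0.75 ± 0.25; adjusted p = 0.125). Camp and Csf3r, also neutrophil genes, lay on the other side, at 0.46 and 0.57. The mean of the list was 4.41, 4.61 and 4.02 in floxed arrays 1 to 3 and 3.96, 3.95 and 3.80 in the KO arrays. Of 19 T and NK cell genes 1 fell, the NK receptor gene Klrc2 (−1.57 ± 0.31; adjusted p = 0.0478). Without the block none of 20 macrophage and dendritic, 16 B and plasma, and 12 mast cell genes passed, with medians of −0.06, −0.0066 and −0.16. Cd14, a macrophage receptor for endotoxin, differed by −1.42 (adjusted p = 0.0743, and 0.0483 with the block). Ms4a1, the B cell antigen CD20, differed by −1.74 ± 0.41 (adjusted p = 0.0688, and 0.0374 with the replicate block).

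Genes of antigen presentation and of interferon response had no call without the replicate block, where 1.08% of all genes passed (4.17% with it). The class II genes H2-Aa and H2-Ab1 were high in KO array 3, at 10.0 and 9.96, against 6.45 to 7.93 in KO arrays 1 and 2 and 4.94 to 7.18 in the floxed arrays (2.25 ± 0.71 and 2.20 ± 0.70; limma adjusted p = 0.115 and 0.117, and 0.0463 and 0.0227 with the replicate block). The 12 genes of the class II list had a median of 0.11. The 32 interferon response genes had a median of −0.13, and −0.87 against floxed array 3 alone, whose mean over the list, 5.83, was the highest of the 6 arrays.

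Signals of digestive glands were unequal between arrays. Of 22 genes of exocrine pancreas and Brunner glands, which lie beside or under the duodenal epithelium, 0 passed, against 1.08% of all genes. Tff1, a trefoil peptide, passed as higher with the replicate block, where 4.17% of all genes passed. The list also holds Cpa3 and Zg16, which are in the mast cell and goblet cell lists as well. The mean of the list was 4.67, 4.71 and 7.68 in floxed arrays 1 to 3 and 4.58, 6.14 and 5.25 in the KO arrays. Clps, pancreatic colipase, lay at 10.9 in floxed array 3 and at 5.44 to 7.87 in the other 5, and Try4, a trypsin, at 8.99 in floxed array 3 and 7.59 in KO array 2, against 1.81 to 4.74 in the other 4. None of the 22 genes had a KO mean above floxed array 3. The part of this signal in differences against floxed array 3 was not tested.

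Secretory lineages gave no call without the replicate block, and 3 of 14 goblet cell genes (Muc2, Clca1 and Atoh1) were higher with it. Of all genes 1.08% passed without the block and 4.17% with it. Among 14 goblet cell genes Muc2 lay at 5.66, 3.65 and 7.75 in the floxed and 8.38, 7.86 and 8.17 in the KO arrays (2.45 ± 0.78; limma adjusted p = 0.115, and 0.0438 with the replicate block), and Atoh1, the transcription factor of secretory fate, was 1.38 ± 0.42 higher without passing (adjusted p = 0.105, and 0.0412 with the block). Among 14 Paneth cell and antimicrobial genes Reg3b, an antibacterial lectin, lay at 8.02, 9.67 and 12.3 in the floxed and 6.10, 7.60 and 7.60 in the KO arrays (−2.89 ± 0.85; adjusted p = 0.101, and 0.0201 with the block). In adjacent epithelium Reg3b differed by 2.44 (adjusted p = 0.155), and the difference between the tissues had an unadjusted p of 0.00226 and an adjusted p of 0.663. Among 20 enteroendocrine and 14 tuft cell genes 0 passed, with medians of −0.07 and 0.10.

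Groups tied to the growth of Apc-mutant tumors had no called member, against 1.08% of all genes. With the replicate block, where 4.17% of all genes passed, Atoh1, a member of the Notch list, passed. At a share of 1.08% lists of this size would hold few calls, so nothing particular to these groups is read from the 0. The groups were 24 intestinal stem cell genes (median 0.27), 34 targets and 28 components of the Wnt pathway (0.05 and 0.26), 24 fetal and regenerative genes (−0.02), 25 Notch genes (0.35), 35 cell cycle genes (−0.03) and 43 DNA replication genes (−0.09). Nkd1, a feedback inhibitor induced by Wnt signaling, lay at 3.80, 4.95 and 3.92 in the floxed and 4.998, 5.22 and 4.92 in the KO arrays (0.82 ± 0.30; limma adjusted p = 0.153). Prom1, a stem cell surface protein, differed by 0.93 ± 0.30 (adjusted p = 0.119). Cdc7, a kinase that starts DNA replication, differed by −1.06 ± 0.29 (adjusted p = 0.0864). Genes of TGF-beta and BMP response, tight junctions, glycolysis, and cholesterol and fatty acid synthesis also had 0 calls, with medians of 0.15, 0.17, 0.40 and 0.49, and Tgfbi, a matrix protein, passed with the block. The glycolytic list was led by Fbp2, a gluconeogenic phosphatase (1.50 ± 0.32; adjusted p = 0.055, and 0.0336 with the block).

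In 2 other signaling lists a single gene fell, 3.57% and 4.55% of their members against 1.08% of all genes called. With 1 gene each, nothing particular to these lists is read from the shares. Dnajb9, an ER co-chaperone induced by the unfolded protein response, lay at 5.91, 5.07 and 6.09 in the floxed and 4.23, 4.40 and 4.00 in the KO arrays, and fell by 1.48 ± 0.29 (SE; limma adjusted p = 0.0466), while its list of 28 had a median of 0.43 over the 3 floxed arrays and of −0.26 against floxed array 3 alone, with 7 of 28 above that array. Hspa5 and Canx, ER chaperones, were higher with the replicate block, where 4.17% of all genes passed. Ptger3, a receptor of prostaglandin E, lay at 4.198, 3.60 and 3.65 in the floxed and 2.59, 2.62 and 2.62 in the KO arrays, and fell by 1.21 ± 0.23 (adjusted p = 0.0468), while its list of 22 had a median of 0.15. Cbr1, a carbonyl reductase, was higher with the block.

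The same contrast in adjacent epithelium, with 2 arrays a genotype, gave 1209 genes, and the difference between the tissues gave 0 (limma, 1281 at an unadjusted p under 0.05). The weak floxed adjacent arrays are the only floxed arrays there, so signal and genotype cannot be told apart in that tissue. Over both tissues, all 5 KO arrays lay above all 5 floxed arrays for 1274 genes (6.39%) and below them for 1751 (8.78%), and by more than 1 log2 unit for 36 and 13. Snord42a, Rpl5, Mir465, Snora62, Snord42b, Tns1 and Usp17ld were among these 49.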

How the data were processed

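The deposited log2 expression values of 12 arrays were made by the authors with Partek and RMA, per the submitters' processing notes, which name no versions. Of 35556 probe sets, 21789 had 1 gene symbol, 1621 several and 12146 none, and each of 19938 genes was represented by its brightest probe set on average. KO and floxed tumor epithelium were compared with limma 3.58.1 in R 4.3.3 on 10 arrays in 4 groups, with Benjamini-Hochberg adjustment over all genes and a call at an adjusted p under 0.05. Scripts were tested on simulated data. The precision is limited by 3 arrays a genotype. Deviations of same-numbered tumor arrays from their group means correlated at 0.105, 0.121 and 0.347, and those of differently numbered arrays at −0.291 to 0.246. The replicate number from the titles was also fitted as a block. The labels do not say what that number marks, so whether the block is part of the design is not known. Genes named were Ppard, S100a4, Ppara, Pparg, Apc, the 12 rises and 8 falls with the widest gap between genotypes, any called fall above the median level, up to 4 called (otherwise 2) members per list, and 6 microRNAs. Predicted genes, small nucleolar RNAs and smell receptors were left out of that rule, and genes named beyond it were chosen after their values were seen. The members and the 40 lists were chosen with earlier results of these data known. Other settings tried were normalization, removal of dim genes, use of every probe set, variance models, array weights, tumor arrays alone and arrays left out.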

Additional observations from a re-analysis of the deposited data

How the results depend on the processing

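Also requiring a log2 difference over 1 could not change the count of 215 genes, because all 215 exceeded it. In every other setting the count moved by more than 1.5 times. It was 13 after quantile normalization (12 of the 215 among them), 13 with equal median and median absolute deviation (8 of the 215), 98 without the dimmest 30% of genes, 336 over all probe sets, 61 with trend and robust variance, 2907 with array weights and 8 with the 6 tumor arrays alone. It was 3866 without the 4 weak-signal floxed arrays (211 of the 215), 527 without floxed tumor arrays 1 and 2 (89 of the 215), 0 and 132 with the conflicting labels read by title or by characteristic, and 1181 at an adjusted p under 0.10. Leaving out 1 tumor array gave 10 to 5793. Without the weak-signal arrays the 1 floxed tumor array left is assumed to vary like the other groups. Under the replicate block 831 genes passed, all 215 among them, and Ppard was 1.14 (limma adjusted p = 0.0467). Ppard also passed with array weights (1.19) and ranged from 0.84 to 1.50 with 1 array left out. Its adjusted p ranged from 0.0032 to 0.451. Ppara turned to −0.78 and Pparg to −1.17 in both settings without weak-signal arrays, and with 1 array left out they ranged from −0.19 to 0.52 and from −0.55 to 0.84. Zg16, a goblet cell gene, turned to −0.15 with equal median and deviation and to −0.39 without the weak-signal arrays. Of the other values of named genes, 1106 kept direction and side of the threshold, 349 lost and 80 gained the call. The causes were not tested.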

Other observations

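The 2 arrays of adjacent epithelium whose labels name opposite genotypes belong in no comparison, and their values are given alone. Over the 49 genes in which all KO and all floxed arrays of both tissues were more than 1 log2 unit apart, the array titled KO adjacent 3 lay in the floxed range for 21, nearer floxed for 14, nearer KO for 13 and in the KO range for 1. The array titled floxed lay in the KO range for 28, nearer KO for 20 and nearer floxed for 1. Mir465 was 6.78 in the first and 1.65 in the second, Snord42a 4.73 and 10.5, and Tns1 6.91 and 11.5.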
